A study of Mus musculus with 2 samples.

Results

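The genes described here encode 57 subunits and enzymes of the ATP-dependent chromatin remodellers. They were chosen by symbol from the known SWI/SNF, CHD/NuRD, ISWI and INO80 families, and a peak was counted for a gene when the deposited list assigned it to exactly that symbol. Peaks were found for 51 of the 57 genes, and they made up 102 of the 26232 distinct ATAC-seq peaks of the series. The 6 genes without a peak were kept in every mean with a count of 0.

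ATAC-seq marks open chromatin through insertion of sequencing adapters by the Tn5 transposase. The study asked how the LIM-homeodomain factor Isl1 shapes the chromatin of cardiac progenitor cells (CPCs). The only group analysed here is CPCs without knockdown, taken at day 5 of directed differentiation from the E14 Tg(Nkx2-5-EmGFP) mouse embryonic stem cell line, in which EmGFP reports Nkx2-5. It comprised 2 replicates from separate differentiations, labelled C57BL/6 and passages 16-20, so every value stems from 1 reporter line. Isl1 knockdown cells are named in the series and were not analysed here. Both replicates were represented by 1 shared list of regions on the mm9 build, which carries coordinates, a signed distance to a transcription start site (TSS) and a gene, and no score. No value had a replicate error, the depth was unknown, and no difference could be tested over samples. Intervals given below are 95% intervals for counting error over genes or peaks. A gene without a peak was not thereby measured as closed, since a region found in 1 replicate alone, or too weak to be called, would be missing too. The label of the cells was checked on 8 cardiac progenitor genes: Isl1 had 8 peaks, Tbx20 6, Tbx5 5, Mef2c 4, Nkx2-5 3, Gata4 3 and Myocd 1, whereas Hand2 had 0.

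Remodellers use the energy of ATP hydrolysis to slide, evict or exchange nucleosomes. SWI/SNF (BAF) complexes, built on the ATPases Smarca4 (Brg1) or Smarca2 (Brm), mainly open chromatin, and subunits such as Smarcd3 (Baf60c) and Dpf3 are known for roles in the developing heart. The CHD family includes Chd4, the motor of the deacetylase-containing NuRD complex, and Chd7, whose human counterpart is mutated in CHARGE syndrome, which includes heart defects. ISWI enzymes such as Smarca5 (Snf2h) space nucleosomes, and the INO80 family handles the histone variant H2A.Z.

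The ATPase genes Smarca4, Smarca2, Smarca5, Chd4 and Ino80, from the 4 families, had a peak over a start site, mostly in sequence rich in G and C. The bases just before these start sites are shown because they carry the CpG-rich sequence that most remodeller promoters had in common, and because Smarca2 differed between its own start sites. Each line gives 100 bases of mm9, written 5′ to 3′ in the direction of the gene and ending at the base before the start site. Where RefSeq and GENCODE start sites inside the same peak differed, the one further upstream was used. Capitals mark the GC box string GGGCGG on either strand. The CCAAT box was searched for as well and was in none of these 6 stretches.
Smarca4, chr9:21420513-21420612, plus strand: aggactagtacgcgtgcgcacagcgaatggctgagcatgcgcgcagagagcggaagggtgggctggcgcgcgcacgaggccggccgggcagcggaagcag
Smarca2 first start, chr19:26679550-26679649, plus strand: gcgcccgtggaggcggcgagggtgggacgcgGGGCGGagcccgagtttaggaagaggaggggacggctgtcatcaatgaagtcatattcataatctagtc
Smarca2 internal start, chr19:26822556-26822655, plus strand: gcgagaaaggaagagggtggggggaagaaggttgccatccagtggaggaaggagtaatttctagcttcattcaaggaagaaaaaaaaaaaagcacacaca
Smarca5, chr8:83263397-83263496, minus strand: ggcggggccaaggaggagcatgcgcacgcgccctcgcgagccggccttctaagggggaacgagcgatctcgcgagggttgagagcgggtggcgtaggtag
Chd4, chr6:125045899-125045998, plus strand: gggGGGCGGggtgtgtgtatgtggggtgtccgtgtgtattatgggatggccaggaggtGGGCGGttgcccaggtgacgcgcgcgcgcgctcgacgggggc
Ino80, chr2:119303424-119303523, minus strand: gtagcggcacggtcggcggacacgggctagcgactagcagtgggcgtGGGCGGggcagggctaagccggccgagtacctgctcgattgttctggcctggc
The Smarca4 stretch held the most CpG dinucleotides of the 6, at 14, that of Smarca5 held 13, and those of Chd4 and Ino80 11 each. Before the first start of Smarca2 there were 9 CpGs and 61.0% G and C. Its internal start was the exception, with 1 CpG and 45.0% G and C, although it too lay in a peak.

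A peak was assigned to 89.5% of the remodeller genes (51 of 57, Wilson interval 78.9 to 95.1%), compared with 62.5% of all 21896 protein coding genes. Among coding genes whose promoter was CpG-rich the share was 87.0%, and 47 of the 57 remodeller genes (82.5%) had such a promoter, against 47.3% of the annotated coding genes. A list of 53 histone and DNA modifying enzymes, another class of chromatin regulators, had a peak at 90.6%. A further 47 subunits and SNF2-type ATPases that were not among the 57 had a peak at 89.4%. Of the 5 of these without an assigned peak, Ino80e, Znhit1, Brd8 and Rad54l had a promoter covered by a peak of a neighbouring gene, and Ino80b did not. The shares of all 3 of these sets lay inside the interval of the remodeller genes, and that of all coding genes lay below it.

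In the number of peaks, the remodeller genes lay above coding genes in general. The mean was 1.79 peaks per gene (exact Poisson interval 1.46 to 2.17) against 1.07 for all coding genes, 1.54 for coding genes with a CpG-rich promoter, 1.60 for the modifying enzymes and 1.21 for the further subunits. The values of coding genes with a CpG-rich promoter and of the modifying enzymes lay inside this interval, and the others lay below it. The median was 1 for the remodeller genes and for each of these sets, so the mean was carried by few genes. Of the 57 genes, 11 (19.3%) had 3 or more peaks, compared with 10.3% of all coding genes and 15.8% of coding genes with a CpG-rich promoter. The 3 genes with most peaks, Arid1b, Chd7 and Chd6, held 22 of the 102 peaks. Without these 3 genes, which were left out after their values were seen, the mean was 1.48 peaks per gene. No genes were left out of the comparison sets, so this value cannot be set against theirs.

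**Figure D1:**
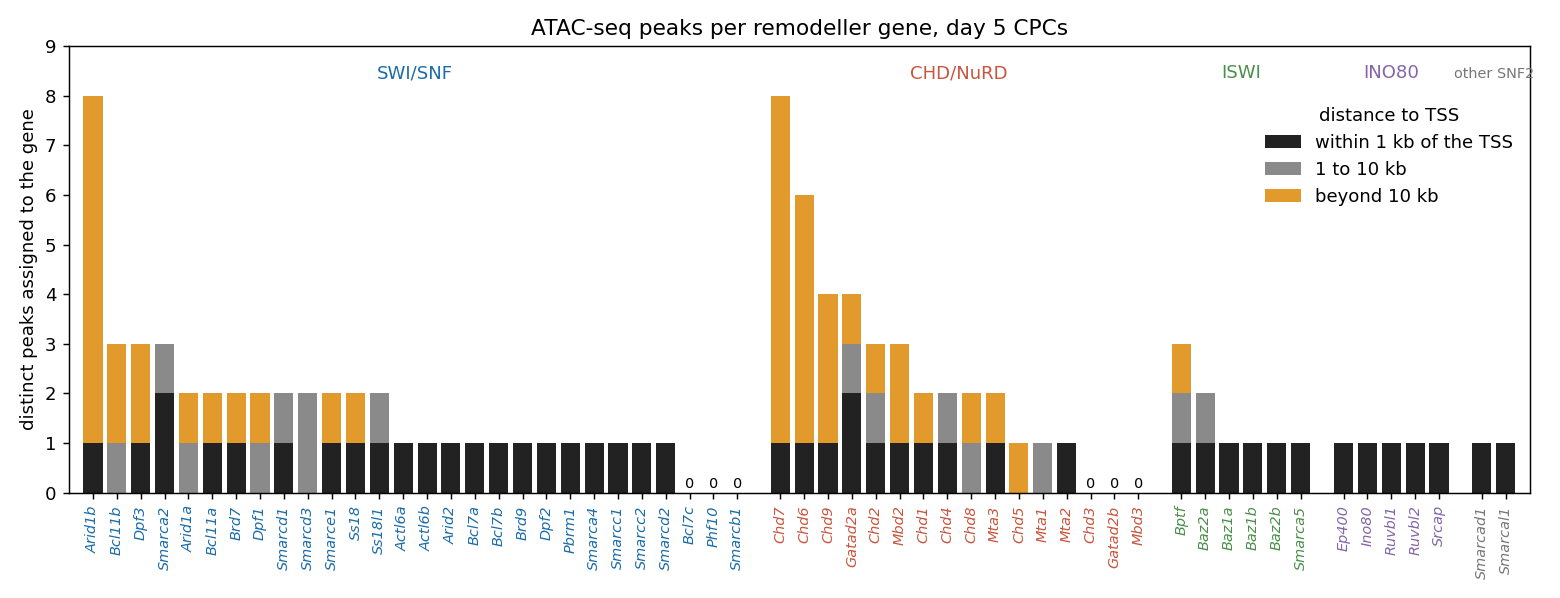
Distinct ATAC-seq peaks assigned to each of the 57 remodeller genes in day 5 CPCs, from the list shared by 2 replicates; each bar is 1 gene, its colours give the distance of the peaks to the TSS, and 0 marks the genes without a peak. Of the bars, 26 are 1 peak high, nearly all of them a black block at the TSS, and the tall bars of Arid1b, Chd7, Chd6 and Chd9 are made of peaks beyond 10 kb.

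By family, the mean ranged from 1.00 to 2.44 peaks per gene. CHD/NuRD genes were highest with 39 peaks over 16 genes (mean 2.44, 1.73 to 3.33), followed by SWI/SNF with 47 over 28 (1.68, 1.23 to 2.23), ISWI with 9 over 6 (1.50, 0.686 to 2.85) and INO80 with 5 over 5 (1.00, 0.325 to 2.33). The intervals of all 4 families overlapped one another, and no difference between families was tested. All 6 ISWI genes and all 5 INO80 genes had a peak, whereas 25 of 28 SWI/SNF genes and 13 of 16 CHD/NuRD genes did. Within CHD/NuRD the 9 CHD ATPases held 28 peaks (3.11 per gene, 2.07 to 4.50), and the 7 other NuRD subunits held 11 (1.57, 0.784 to 2.81). The 2 SNF2 enzymes outside these complexes, Smarcad1 and the annealing helicase Smarcal1, had 1 TSS peak each, of 1094 and 1097 bp.

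The location of the peaks also varied by family. A peak within 1 kb of the TSS was present at 44 of the 57 genes (77.2%), with a background of 50% over all coding genes and 79.5% over those with a CpG-rich promoter. Such peaks made up all 5 INO80 peaks, 6 of 9 ISWI peaks (66.7%, 35.4 to 87.9%), 22 of 47 SWI/SNF peaks (46.8%, 33.3 to 60.8%) and 11 of 39 CHD/NuRD peaks (28.2%, 16.5 to 43.8%). The INO80 value holds for the 5 genes of the set and not for the whole family. Among INO80-family genes outside the set, Actr5 and Trrap were among those with a TSS peak alone, whereas Ino80d and Dmap1 were assigned distal peaks alone. The promoter of Ino80d was covered by a peak of 1179 bp assigned to Ino80dos, and that of Dmap1 was not covered. Conversely, peaks beyond 10 kb accounted for 59.0% of CHD/NuRD peaks, 36.2% of SWI/SNF peaks and 11.1% of ISWI peaks. Over all peaks of the series, 44.9% lay within 1 kb and 41.4% beyond 10 kb, so SWI/SNF was near the background. Without Chd6 and Chd7, left out after their values were seen, the CHD/NuRD share within 1 kb was 36% (20.2 to 55.5%). At least 1 peak beyond 10 kb was found at 20 of the 57 genes (35.1%), compared with 23.9% of all coding genes, 31.6% of those with a CpG-rich promoter and 35.8% of the modifying enzymes. These 20 comprised 10 of 16 CHD/NuRD genes, 9 of 28 SWI/SNF genes and 1 of 6 ISWI genes.

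**Figure D2:**
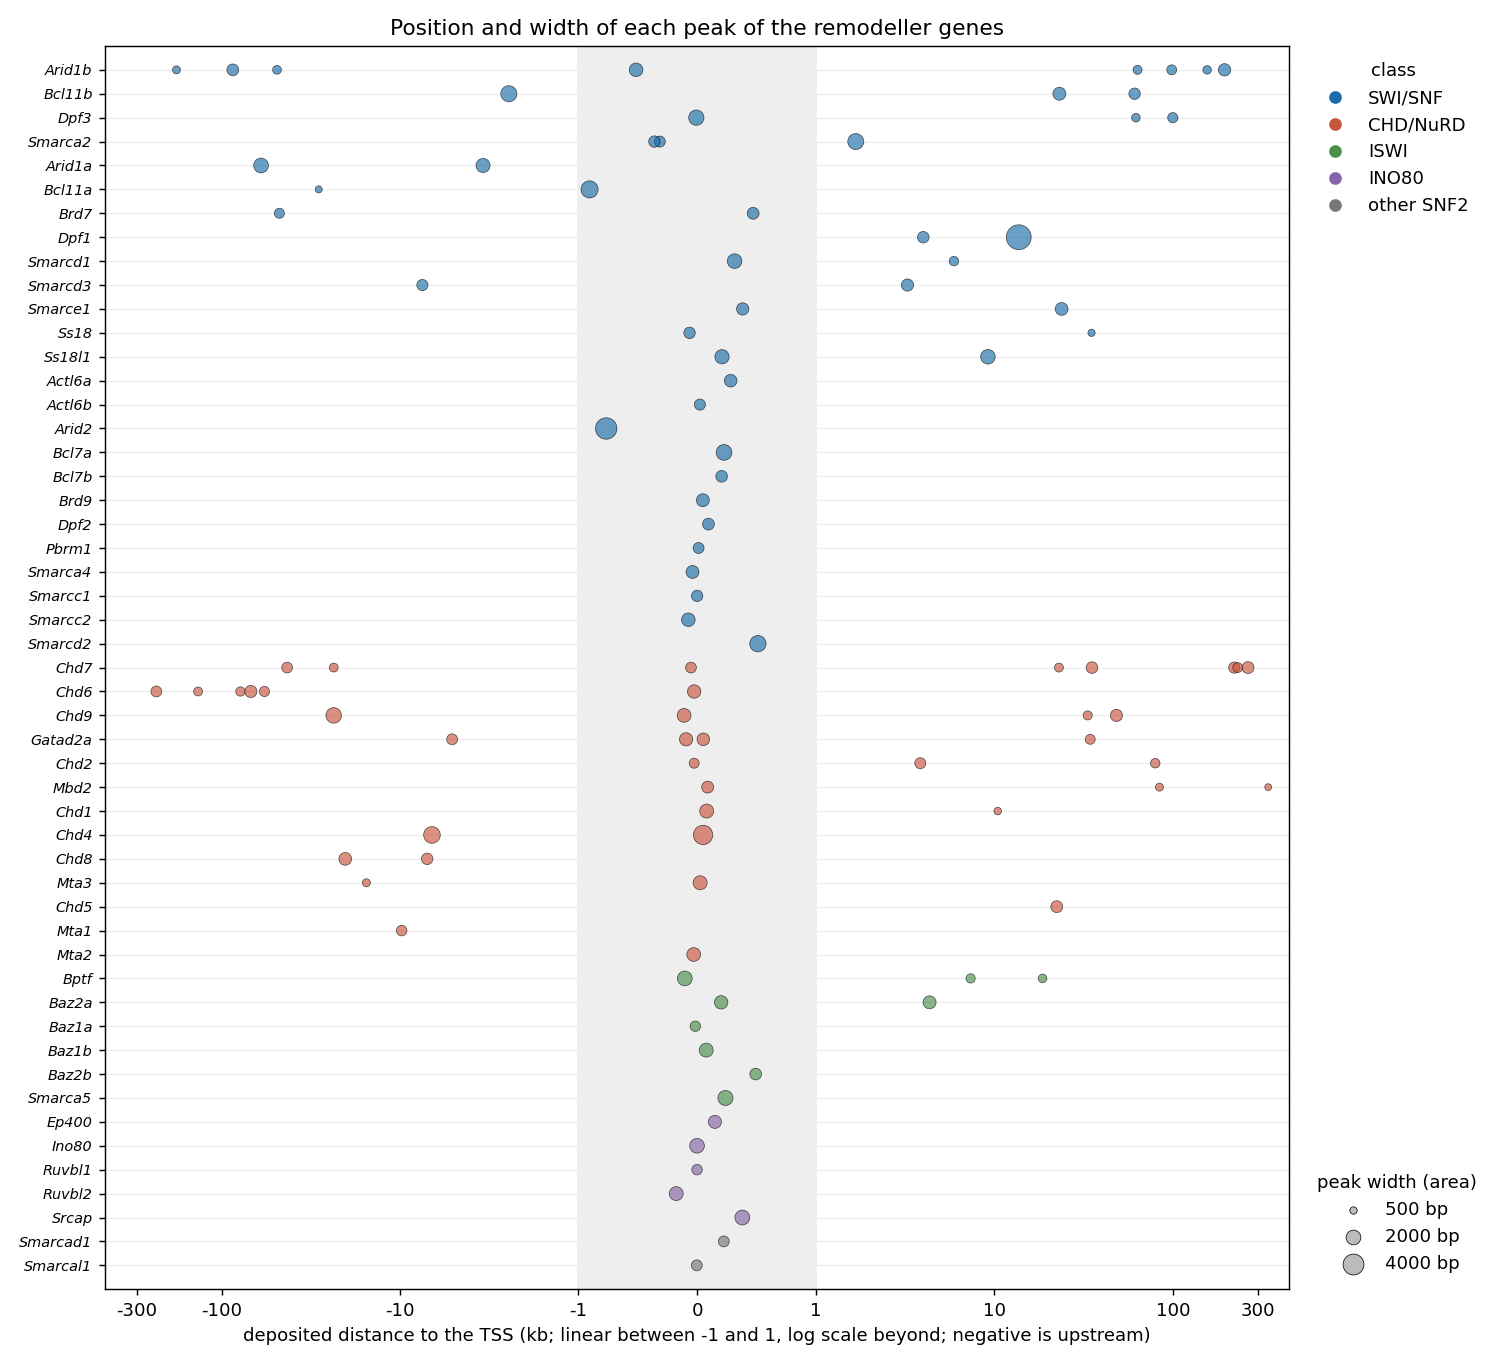
Position of each of the 102 peaks relative to the TSS, in kb, with 1 row for each of the 51 remodeller genes that had a peak; colour gives the family, the area of a point gives the peak width, and the shaded band covers 1 kb on either side of the TSS. The 5 INO80 genes have points in the band alone, whereas the points of Chd6 run upstream to -232602 bp and those of Chd7 run downstream to 264236 bp.

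The ATPases of SWI/SNF had few peaks, all at start sites or close to them. Smarca4 had 1 peak of 1526 bp at -40 bp. Smarca2 had 3 peaks, 1114 bp wide at -315 bp, 2364 bp wide at 1668 bp, and 1194 bp wide at -361 bp from the internal start whose sequence is given above. Neither gene had a peak beyond 10 kb, although the stretch of chromosome nearer to Smarca2 than to any other coding TSS measured 680.1 kb. The ISWI and INO80 ATPases of the set had TSS peaks alone. Smarca5 had 1 peak of 2094 bp at 237 bp, Ino80 had 1 of 1978 bp at -2 bp, Srcap 1 of 2027 bp at 379 bp, and Ep400 1 of 1573 bp at 148 bp. Outside the set, the ISWI ATPase Smarca1 had 1 peak, 1442 bp wide at 456000 bp, and none over an annotated start site.

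Among the subunits that define the kind of BAF complex, Arid1b stood apart in peak number. Arid1b, a DNA-binding subunit of canonical BAF, had 8 peaks. Its TSS peak was 1704 bp wide at -515 bp. Of the other 7, 3 lay upstream at -48981, -86679 and -179379 bp and 4 lay in introns at 63411, 98570, 155782 and 195063 bp, with widths from 589 to 1407 bp. Arid1a, its paralogue, had 2 peaks, 1834 bp wide at -3425 bp and 2001 bp wide at -60205 bp. The nearer of these lay -268 bp from a start site in GENCODE, so Arid1a had an open promoter by that annotation and none within 1 kb by the deposited distance. Arid2, which defines PBAF, had 1 TSS peak of 4243 bp, the widest TSS peak of the set. Pbrm1, the polybromo subunit of PBAF, had 1 peak of 1107 bp at 11 bp, the narrowest of the SWI/SNF TSS peaks. That peak also covered the start of the divergent gene Gnl3.

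Several core and accessory SWI/SNF subunits had a TSS peak and nothing else. The scaffold genes Smarcc1 and Smarcc2 had 1 peak each, of 1183 bp at -1 bp and 1681 bp at -75 bp. The same arrangement was seen at Actl6a (1465 bp), Dpf2 (1290 bp), Bcl7a (2285 bp), Bcl7b (1251 bp) and Brd9 (1530 bp), whose peak also covered the start of Trip13. Smarce1, the HMG-box core subunit, had a TSS peak of 1390 bp and a downstream peak of 1515 bp at 23786 bp. Brd7, the bromodomain subunit of PBAF, had a TSS peak of 1294 bp and an upstream peak of 938 bp at -47508 bp. Ss18 had a TSS peak of 1210 bp and a narrow peak of 481 bp inside the gene at 35011 bp.

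The 3 Baf60 genes, which encode alternative subunits that link SWI/SNF to transcription factors, had unlike arrangements. Smarcd1 had a TSS peak of 1958 bp at 314 bp and an intronic peak of 819 bp at 5925 bp. Smarcd2 had a TSS peak alone, 2463 bp wide at 510 bp. Smarcd3 had no peak within 1 kb of its TSS, and its 2 peaks were 1367 bp wide at 3252 bp, over coding exon sequence, and 1159 bp wide at -7496 bp, in intergenic sequence. The promoter of Smarcd3 was CpG-rich (67.0% G and C), so it was among the 9 CpG-rich remodeller promoters without a peak. The heart-associated PHD finger subunit Dpf3 had a TSS peak of 2148 bp at -8 bp and peaks at 62107 bp (677 bp) and 100007 bp (965 bp). The GENCODE vM1 model of Dpf3 does not reach this RefSeq start, so the annotation places these 3 peaks between genes.

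Genes of the neuronal BAF variant also had peaks in these cells. Actl6b, the neuronal counterpart of Actl6a, had 1 TSS peak of 1129 bp at 22 bp. Ss18l1, known as CREST in neurons, had a TSS peak of 1873 bp, which also covered the start of the divergent gene Psma7, and a second peak of 1955 bp at 9187 bp. Dpf1 had a peak of 1227 bp at 3986 bp, which lay -20 bp from an alternative GENCODE start, and a peak of 5677 bp at 13682 bp. The latter was the widest of the 102 peaks and ranked 10 by width among all 26232. The zinc finger factors Bcl11a and Bcl11b, which associate with BAF, had their nearest peaks centred upstream of the TSS: 2693 bp wide at -906 bp for Bcl11a, and 2392 bp wide at -2455 bp for Bcl11b. Further peaks lay at -28588 bp for Bcl11a, in an exon of A830031A19Rik, and in introns at 23115 and 61050 bp for Bcl11b.

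Among the CHD ATPases, Chd7 had 8 peaks and Chd6 had 6. Chd7 had a TSS peak of 1064 bp at -53 bp, peaks upstream at -23541 and -43001 bp, 2 intronic peaks at 22990 and 35217 bp, and 3 peaks downstream of the gene body at 221142, 231240 and 264236 bp. Chd6 had a TSS peak of 1644 bp at -26 bp, and its other 5 were all upstream, at -57602, -68698, -78601, -135722 and -232602 bp. The distal peaks of Chd7 were 727 to 1307 bp wide and those of Chd6 738 to 1367 bp. Thus, by the deposited distance, all distal peaks of Chd6 were upstream of its TSS, whereas 5 of the 7 of Chd7 were downstream. The Chd7 peak at 22990 bp lay 3057 bp from an alternative GENCODE start of the gene.

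Chd9 and Chd2 also had 3 or more peaks. Chd9 had a TSS peak of 1745 bp at -111 bp, intronic peaks at 33326 and 48297 bp, and a peak of 2215 bp listed at -23560 bp. The last lies inside the gene, so its distance was taken from a different start of Chd9, and GENCODE places the start of Gm6658 in it. Chd2 had peaks of 915 bp at -26 bp, 1116 bp at 3836 bp and 835 bp at 79678 bp, of which the first was the narrowest TSS peak of the 57 genes. The peak at 3836 bp lay -290 bp from a second annotated start of Chd2.

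Chd1 had a TSS peak of 1795 bp at 79 bp and a narrow intronic peak of 526 bp at 10428 bp. Chd4, the NuRD motor, had a TSS peak of 3445 bp at 49 bp, the widest TSS peak of the CHD/NuRD genes, and a second peak of 2545 bp at -6625 bp. The other NuRD motors had less: Chd5, a mainly neural gene, had 1 peak of 1295 bp over coding exon sequence at 22345 bp, and Chd3 had no peak. Chd8 had 2 upstream peaks, 1213 bp at -7047 bp and 1495 bp at -20296 bp, and none at its TSS.

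The NuRD partners of these enzymes varied as much. Gatad2a had 4 peaks, with a TSS peak at each of 2 start sites (1619 and 1450 bp), 1 at -5104 bp and 1 at 34416 bp, whereas its paralogue Gatad2b had none. Mbd2, a methyl-CpG-binding subunit, had 3 peaks, of which 1 at 342774 bp was both the farthest from a TSS and, at 430 bp, the narrowest of all 102. Its paralogue Mbd3 had none. Mta2 had a TSS peak alone (1733 bp), Mta3 had a TSS peak (1807 bp) and 1 of 593 bp at -15445 bp, and the sole peak of Mta1 lay at -9798 bp in a coding exon of Tex22.

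In the ISWI family, Bptf, the large subunit of NURF, had most peaks: a TSS peak of 2012 bp at -105 bp and intronic peaks of 791 bp at 7348 bp and 682 bp at 18602 bp. Baz2a had a peak of 1654 bp at 201 bp and another of 1556 bp at 4324 bp, and its most upstream promoter was covered by a peak of 1809 bp assigned to Ptges3. Baz1a, Baz1b and Baz2b had 1 TSS peak each, of 1009, 1777 and 1251 bp, and the first was the narrowest of the family. The widest among the ISWI genes of the set was that of Smarca5. In the INO80 family the 5 TSS peaks ran from 1021 bp at Ruvbl1 to 2027 bp at Srcap. Ruvbl2, the partner helicase of Ruvbl1, had a peak of 1780 bp that held the start of Gys1 as well.

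The 6 genes without a peak were Smarcb1, Phf10 and Bcl7c of SWI/SNF and Chd3, Mbd3 and Gatad2b of CHD/NuRD. Smarcb1 encodes a core subunit of SWI/SNF, and Phf10 a PHD finger subunit of PBAF. The promoter of Bcl7c was covered by a peak of 1955 bp that the list assigned to Mir762, so its count of 0 came from the assignment. For the other 5 no peak overlapped any annotated start. The nearest peaks of any gene lay at -7115 bp for Mbd3, -10856 bp for Smarcb1, -13518 bp for Chd3, 26708 bp for Gatad2b and 49353 bp for Phf10. The promoters of Smarcb1, Phf10, Chd3 and Mbd3 were CpG-rich.

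Promoters were then scored without regard to the assigned gene, as 500 bp on either side of the most upstream coding start. A peak overlapped 44 of the 57 promoters (77.2%, 64.8 to 86.2%), against 53.7% of all coding promoters. Among CpG-rich promoters, the order was the other way, with 38 of 47 for the remodeller genes (80.9%, 67.5 to 89.6%) and 89.4% for all coding genes. The value of all coding genes lay inside this interval. Among the 10 CpG-poor remodeller promoters 6 had a peak (60%, 31.3 to 83.2%), compared with 24.9% of all CpG-poor promoters. Of those without one, Dpf3 and Baz1a had deposited TSS peaks at -8 and -17 bp, from start sites other than the one scored. Their CpG class and missing peak therefore depend on the choice of start. With any annotated start, 80.7% of the 57 genes had a promoter peak. By family the share was 78.6% for SWI/SNF, 62.5% for CHD/NuRD, 83.3% for ISWI and 100% for INO80.

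The median width of the peaks at start sites was close to that of most comparison sets. The median width of the 46 TSS peaks was 1596 bp (order-statistic interval 1294 to 1777 bp), against 1326 bp for all peaks within 1 kb, 1406 bp for those of coding genes with a CpG-rich promoter and 1716 bp for TSS peaks of the modifying enzymes. These comparison medians lay inside the interval, whereas that of the further subunits and SNF2-type ATPases, 1210 bp, lay below it. By family the medians were 1496 bp for SWI/SNF, 1644 bp for CHD/NuRD, 1716 bp for ISWI and 1780 bp for INO80, with ranges that overlapped throughout. More than 2 kb was reached by 9 of the 46 (19.6%), compared with 13.3% of all TSS peaks, 15.1% of those of coding genes with a CpG-rich promoter and 34.9% of those of the modifying enzymes. The 41 peaks beyond 10 kb had a median of 916 bp, against 880 bp for all such peaks. Chromatin and the depth of the replicate whose coordinates were kept cannot be told apart in a width.

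**Figure D3:**
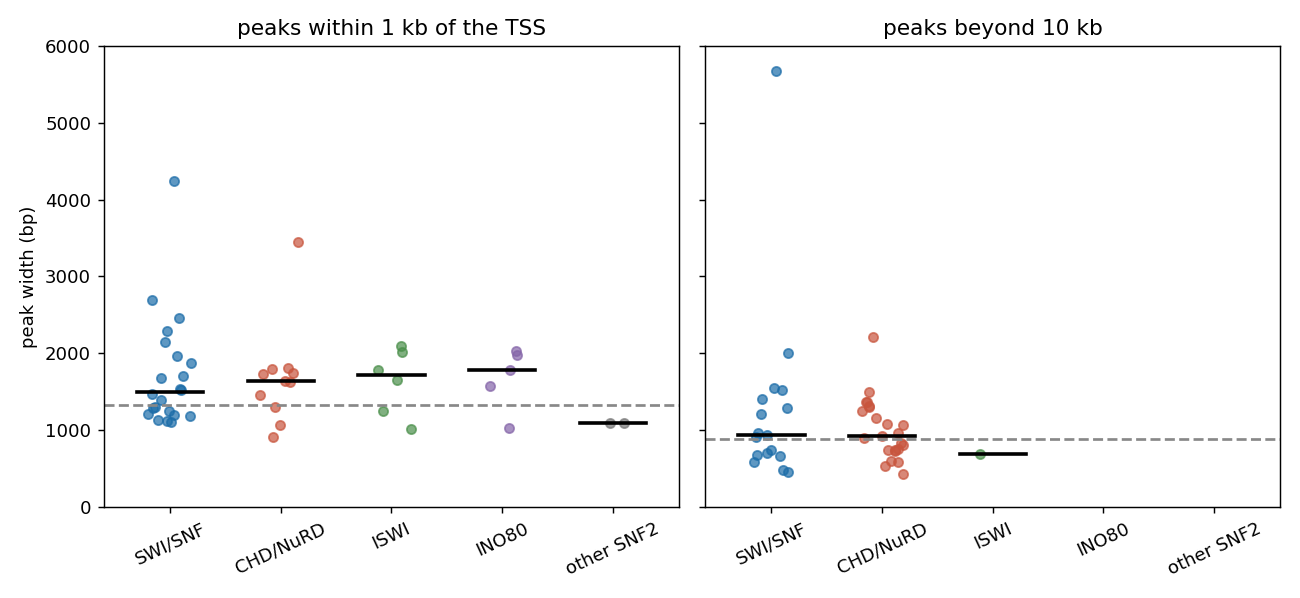
Width in bp of each peak within 1 kb of the TSS (left) and beyond 10 kb (right), by family; each point is 1 peak, the black bar is the family's median, and the dashed line is the median of all such peaks of the series (1326 bp left, 880 bp right). On the left the points of the 4 families overlap, and the peaks of Arid2 (4243 bp), Chd4 (3445 bp) and Dpf1 (5677 bp, right) stand above the rest.

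The number of distal peaks was read beside the room around each gene, since a nearest-TSS assignment gives more peaks to genes that stand alone. This room was taken as the stretch nearer to the gene's start sites than to any other coding TSS. Its median was 67.8 kb for the remodeller genes and 46.6 kb for all coding genes, and by family 54.9 kb for SWI/SNF, 80.9 kb for CHD/NuRD, 126 kb for ISWI and 67.8 kb for INO80. The 13 remodeller genes with 200 kb or more held 30 of the 41 distal peaks, a mean of 2.31 against 1.22 for coding genes of that size. With 100 to 200 kb the means were 0.75 and 0.825, with 50 to 100 kb 0.286 and 0.468, and below 50 kb 0.0455 and 0.131. So in the 3 smaller bands the remodeller genes had no more distal peaks than coding genes in general.

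The higher mean in the largest band rested on Arid1b and Chd7 with 7 distal peaks each and Chd6 with 5. Over all 57 genes the mean was 0.719 distal peaks per gene (0.516 to 0.976), against 0.413 for all coding genes, 0.578 for those with a CpG-rich promoter and 0.547 for the modifying enzymes. The last 2 values lay inside the interval, whereas the mean of the further subunits and SNF2-type ATPases, 0.362, lay below it. Without Arid1b, Chd7 and Chd6, which were left out after their values were seen, the mean of the remodeller genes was 0.407. The comparison sets kept their own genes with most peaks, so this value cannot be set against theirs. Other genes in wide stretches had no distal peak, namely Smarca2 (680.1 kb), Baz2b (270.2 kb), Arid2 (258.9 kb) and Smarcad1 (208 kb). ISWI genes, with the widest stretches by median, had 1 distal peak.

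**Figure D4:**
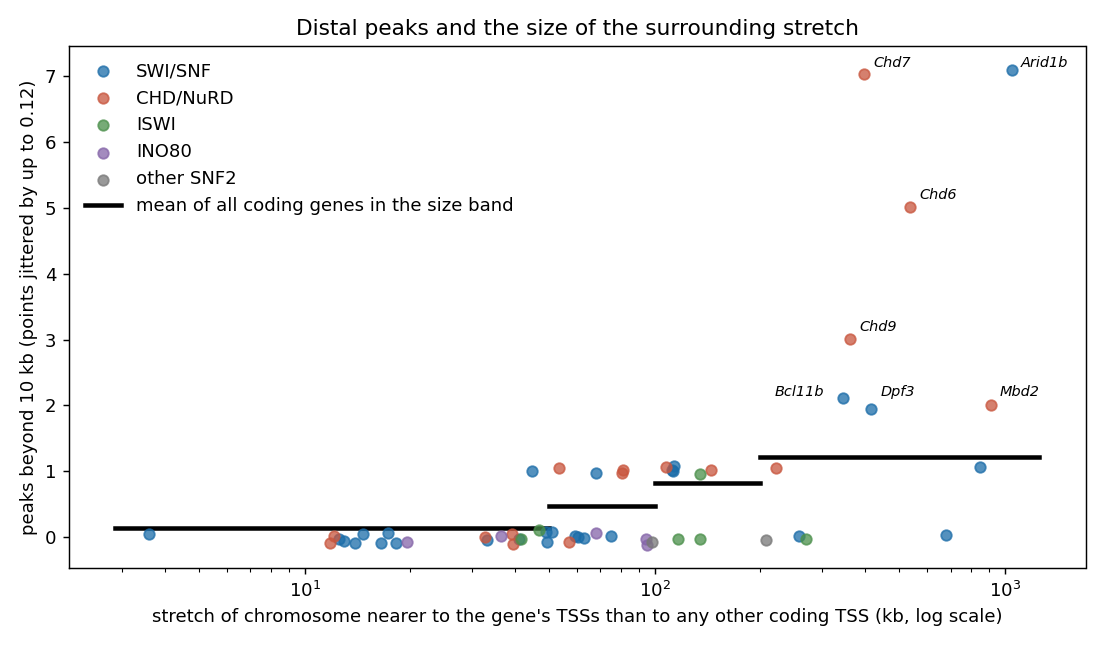
Number of peaks beyond 10 kb at each of the 57 genes against the stretch of chromosome, in kb on a log scale, that is nearer to the gene's start sites than to any other coding TSS; points are genes coloured by family, and black lines are the mean of all coding genes in 4 size bands. Arid1b, Chd7 and Chd6 lie far above the line of 1.22 for stretches of 200 kb or more, and Smarca2 lies at 0 in the same band.

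Of the 41 distal peaks, 17 lay in the body of the assigned gene, 23 between genes and 1 in another gene. Bodies were those of coding GENCODE models. The distal peaks of Dpf3 therefore counted as between genes, as did the Chd6 peak at -78601 bp, which lay in an intron outside these models. By the deposited distance, 25 were downstream and 16 upstream of the TSS, the Chd9 peak at -23560 bp being counted as upstream. Over all coding genes, 5198 of 9043 distal peaks were downstream and 3845 upstream. SWI/SNF had 11 downstream and 6 upstream, CHD/NuRD 13 and 10. Gene bodies also held peaks that were assigned to other genes: Arid1b (Ldhal6b), Arid1a (Mir7227), Chd6 (Emilin3), Chd2 (A730056A06Rik), Baz2a (Atp5b and Ptges3) and Ruvbl2 (Gys1) had such peaks in addition to those assigned to them.

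The central 300 bases of each peak were searched on both strands for short letter strings that cardiac or general factors recognise. Near the TSS, the GC box GGGCGG was in 40 of 46 remodeller peaks (87.0%), compared with 66.5% of all peaks within 1 kb, and AAGATGG, the core letters of the YY1 motif, in 6 of 46 (13.0%), compared with 6.45%. The remodeller TSS peaks were also richer in G and C, with a median of 62.1% against 58.7% over all coding genes. The ETS string CCGGAAG was in 15.2% against 14.4%, and the E-box CAGCTG in 4.35% against 17.1%. Beyond 10 kb, the GC box was in 31.7% of the remodeller peaks against 19.1% of all, and the homeodomain string TAATTA in 0 of 41, which allows a share of up to 7.32%, against 5.17%. The strings of 4 factor families with roles in the heart were closer to the share of all distal peaks: the GATA string AGATAA was in 7 of 41 (17.1% against 15.9%), the LIM-homeodomain string CTAATG in 4 of 41 (9.76% against 10.3%), the TEAD string GGAATG in 26.8% against 23.2%, and the T-box string GGTGTGA in 7.32% against 6.50%. None of these strings contains another. A match is a string of letters in the window and not a bound site.

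The windows with a GATA or LIM-homeodomain string are given because factors of these families, among them Gata4 and Isl1, act in cardiac progenitors. They comprise the 7 distal peaks with AGATAA, 3 of the 4 with CTAATG, and the nearer upstream peak of Smarcd3. Capitals mark AGATAA or CTAATG on either strand, and each line is mm9 sequence in the direction of the gene with 20 bases on either side of the match or matches.
Smarcd3, peak at -7496 bp, chr5:24115257-24115438, minus strand: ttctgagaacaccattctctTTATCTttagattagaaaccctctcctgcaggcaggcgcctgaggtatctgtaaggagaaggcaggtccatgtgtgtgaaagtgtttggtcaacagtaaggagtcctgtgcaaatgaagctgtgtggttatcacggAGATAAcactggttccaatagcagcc
Smarce1, peak at 23786 bp, chr11:99068403-99068677, minus strand: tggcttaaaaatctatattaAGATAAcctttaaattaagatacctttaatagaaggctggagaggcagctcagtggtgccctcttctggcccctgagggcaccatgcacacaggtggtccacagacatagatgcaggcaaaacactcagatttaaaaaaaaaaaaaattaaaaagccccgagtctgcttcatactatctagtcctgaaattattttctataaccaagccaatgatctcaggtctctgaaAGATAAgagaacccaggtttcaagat
Mta3, peak at -15445 bp, chr17:84089981-84090026, plus strand: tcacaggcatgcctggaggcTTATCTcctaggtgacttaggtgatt
Dpf3, peak at 62107 bp, chr12:84766440-84766485, minus strand: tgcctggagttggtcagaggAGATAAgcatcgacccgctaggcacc
Bcl11b, peak at 61050 bp, chr12:109180561-109180606, minus strand: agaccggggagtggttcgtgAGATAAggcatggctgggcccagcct
Chd7, peak at 22990 bp, chr4:8640503-8640548, plus strand: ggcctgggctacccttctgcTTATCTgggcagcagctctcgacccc
Chd7, peak at 231240 bp, chr4:8848880-8848925, plus strand: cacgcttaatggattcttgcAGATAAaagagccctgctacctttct
Chd6, peak at -78601 bp, chr2:161013367-161013412, minus strand: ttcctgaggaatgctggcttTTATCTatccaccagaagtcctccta
Chd6, peak at -57602 bp, chr2:160992356-160992401, minus strand: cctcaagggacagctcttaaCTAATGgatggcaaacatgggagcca
Chd1, peak at 10428 bp, chr17:15852218-15852263, plus strand: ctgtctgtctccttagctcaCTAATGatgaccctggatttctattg
Gatad2a, peak at 34416 bp, chr8:72463755-72463800, minus strand: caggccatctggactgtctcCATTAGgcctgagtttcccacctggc
The Smarcd3 window held 2 AGATAA strings, 1 on each strand, and lies nearer than 10 kb, so it is not among the 7. The downstream peak of Smarce1 at 23786 bp also held 2. Single matches were found at Dpf3, Bcl11b, Mta3, Chd6 and in 2 peaks of Chd7. Chd6 was the gene that had both strings, in separate upstream peaks.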

How the data were processed

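The authors deposited 1 peak list for both day 5 replicates. Per the study's methods and the submitters' processing notes, reads were mapped to mm9 with Bowtie2, duplicates were removed with Picard 1.136, peaks were called with MACS and blacklisted regions dropped, and regions shared by the replicates were kept with bedtools 2.15. No Tn5 offset correction is described in the sources used here. The deposited columns (peak coordinates, signed distance in bp to a TSS, accession and symbol) hold no score and no replicate values, so depth is unknown.

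The 26429 lines gave 26232 distinct intervals. Positions are 1-based. The sequence before 1 start site is not reported here. Gene models were GENCODE vM1 (NCBIM37, which is mm9). Older symbols of background genes were updated through accessions in a RefSeq table (GRCm38.p6, names only), which held 96.7% of the peaks' accessions. For 59.4% of 23292 peaks the deposited distance equalled that to an annotated TSS within 1 bp. Promoters with at least 50% G and C and a ratio of observed to expected CpG of 0.6 or more were called CpG-rich. Python 3.11.15, pandas 2.3.3, scipy 1.17.1 and pysam 0.24.0 were used, and counting was tested on simulated data. Named genes were the ATPases, the Baf60 genes, Arid1a, Dpf3, genes without a peak, and the extremes of each family in number, width and distance; the other genes named, the size bands and the motif strings were chosen after their values were seen. The members and lists were chosen with earlier results of these data known.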

Additional observations from a re-analysis of the deposited data

How the results depend on the processing

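The measures of peak presence, number, distance and width were recomputed for the whole set and for each of the 4 families. Of 169 recomputed values, 153 stayed within the 95% interval of the reported value and 16 left it. Counting every line, requiring 500 bp, reassigning peaks to the nearest annotated coding TSS or leaving out shared and transcription factor subunits moved no value out of its interval. Keeping only peaks wider than the median of all peaks lowered the mean number of peaks to 1.31 for CHD/NuRD and 1.21 for all genes. It raised the share within 1 kb to 61.1% for SWI/SNF and 60.9% for all genes, and lowered distal peaks per gene to 0.25 for SWI/SNF, 0.5 for CHD/NuRD, 0 for ISWI and 0.263 for all genes. With 50 kb as the distal limit these means were 0.688 for CHD/NuRD, 0 for ISWI and 0.368 for all genes. The median in place of the mean was 1 peak for SWI/SNF and 1 for all genes. With any annotated TSS, 100% of ISWI genes had a promoter peak. In an alternative chosen after seeing the data, distal peaks per gene were 0.786 for CHD/NuRD without Chd6 and Chd7, and 0.407 for all genes without these and Arid1b. The cause of these shifts beyond the construction of each alternative was not tested. No paired analysis was possible because the series as analysed has 1 group, and neither replicate could be left out because the list holds no values per replicate. Families of 5 or 6 genes have wide intervals, and no difference between families was tested.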
